A study of Mus musculus with 8 samples.

Results

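Chemokines are small proteins that guide the movement of leukocytes along gradients and act through G-protein-coupled receptors. Tumour cells, fibroblasts and endothelial cells make many of them when inflammatory signals reach the cell, often through the factor NF-kB or through interferon-activated factors. In tumours the CCR2 ligands are known for drawing in monocytes, the CXCR2 ligands for drawing in neutrophils, and the CXCR3 ligands for drawing in natural killer (NK) cells and activated T cells. The genes described here are 10 chemokine ligands typical of tumour, stromal and myeloid cells, taken by name from a fixed list with no threshold on a measured value: Ccl2, Ccl7, Cxcl1, Cxcl2, Cxcl5, Cxcl10, Cxcl12, Cxcl16, Cx3cl1 and Ccl20. All 10 were listed among the 45706 genes of the deposited tables, and 7 of them passed the filter on low counts.

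RNA sequencing measured these genes in NK cells sorted from BALB/c mice inoculated under the skin with CT26_b2m-/- cells, a mouse colorectal carcinoma line that lacks β2-microglobulin and therefore displays little MHC class I. The tuNK group (4 libraries) is titled as tumour-infiltrating NK cells and the spNK group (4 libraries) as splenic NK cells. Both tissues were minced, digested with enzymes and sorted with magnetic beads and flow cytometry, with a density gradient step for tumours, and the labels do not name the markers used for sorting. The tissue tag and source name are opposite to the title in all 8 samples, so groups follow the titles, and the direction of every difference below rests on the titles. The labels give neither the age nor the sex of the mice, and do not say whether a library is 1 mouse or a pool or whether spleens and tumours came from the same mice. The p-values therefore measure the spread between these libraries, which may be technical.

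Each library held between 38745733 and 53886933 estimated counts. The 10 NK cell markers were all detected, and their summed level was 3445 to 4922 counts per 1000000 (CPM) in tuNK, against 11222 to 16255 CPM in spNK. Markers of fibroblasts and mesenchymal tumour cells, 14 of 14 of which were higher in tuNK, summed to 3155 to 4865 CPM in tuNK, against 14.1 to 56.1 CPM in spNK. Each tuNK library therefore held both NK cell and mesenchymal marker transcripts. In such bulk samples a smaller number of cells of a type cannot be told apart from less RNA per cell. The part that these other cells had in the ligand differences was not tested.

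Among the ligands, the monocyte attractants Ccl2 and Ccl7, the neutrophil attractant Cxcl1 and the interferon-inducible Cxcl10 were all higher in tuNK, and the membrane-bound ligand Cxcl16 was lower. Thus 4 of the 7 ligands tested were higher in tuNK, 1 was lower, and 2, Cxcl12 and Cx3cl1, did not pass the threshold of 0.05 on the adjusted p. Of all 14006 genes tested, 69.6% passed that threshold, 35.6% as higher and 34.0% as lower in tuNK, so a change as such is common in this comparison. The groups did not overlap for 6 of the 7 ligands, against 67.1% of all genes tested. Ccl2, Ccl7 and Cxcl1 passed the filter on low counts through tuNK alone, where they are high. Cxcl10, with 2 counts in spNK 4, Cxcl12, with 0 counts in spNK 3, and Cx3cl1, with 9 counts in spNK 1, also needed tuNK libraries to pass. The numbers of ligands called and not overlapping therefore describe the ligands that passed and support nothing further. The ligands that could not be tested were Cxcl2 and Cxcl5, with at most 28 counts in a library, and Ccl20, with 0 counts in all 8 libraries. Cxcl16, which was higher in spNK, and Ccl20, which was not detected, go against the description of the 10 as ligands of the tumour preparation.

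**Figure D1:**
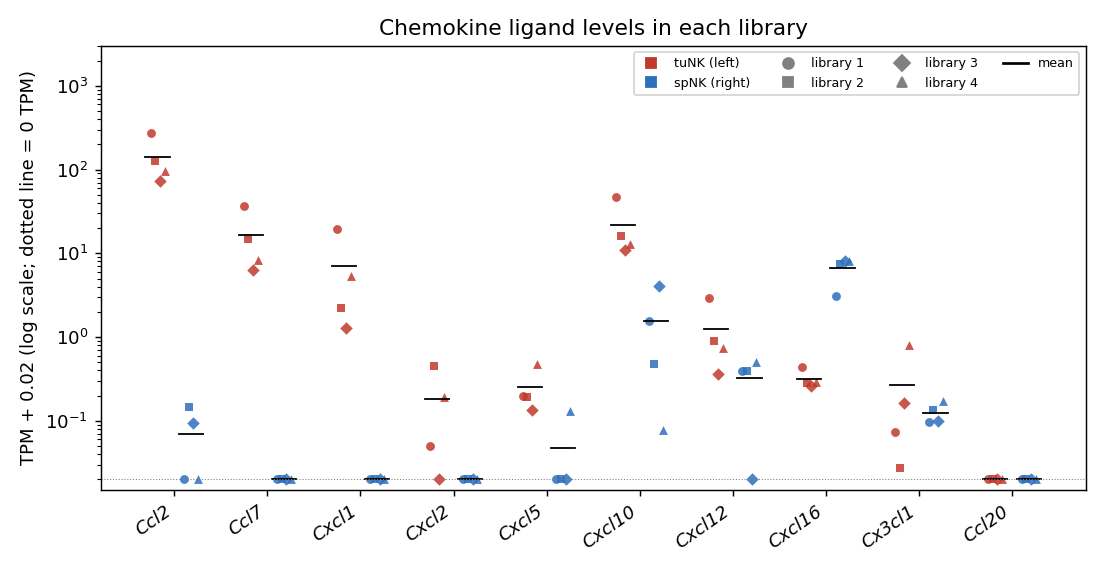
Level of each chemokine ligand in each library, in TPM (transcripts per 1000000, scaled for transcript length) on a log axis with an offset of 0.02 TPM. Points are libraries, with tuNK in red on the left and spNK in blue on the right of each gene, marker shapes give the library number, horizontal bars are means of 4 libraries, and the dotted line marks 0 TPM. Ccl2 lies between 72.1 and 273 TPM in tuNK and at or below 0.128 TPM in spNK, whereas Cxcl16 lies at or below 0.414 TPM in tuNK and between 3.07 and 8.14 TPM in spNK.

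The genes sit in a few clusters, and parts of 4 CXC promoters are shown so that Cxcl1 and Cxcl10, which were higher in tuNK, can be set beside Cxcl2 and Cxcl3, which carry the same letters as Cxcl1 but had few counts. On chromosome 5 of GRCm38 the GENCODE M21 annotation places Cxcl5 at 90759360 to 90761624, Cxcl1 at 90891241 to 90893115 and Cxcl2 at 90903871 to 90905938, all on the plus strand, and Cxcl10 at 92346638 to 92348889 on the minus strand. Each is a protein-coding gene. The sequences below are from RefSeq on GRCm38.p6, run 5′ to 3′ on the strand of the gene, and have matches to the searched motifs in capitals. The Cxcl1 window is chr5:90891125-90891244 (plus strand), the Cxcl2 window is chr5:90903779-90903898 (plus strand) and the Cxcl10 window is chr5:92348890-92349109 (minus strand). The window of Cxcl3, the close paralogue of Cxcl1 and Cxcl2, is chr5:90785981-90786100 (plus strand).
Cxcl1: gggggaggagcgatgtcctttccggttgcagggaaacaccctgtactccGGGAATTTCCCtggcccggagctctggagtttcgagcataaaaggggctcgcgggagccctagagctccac
Cxcl2: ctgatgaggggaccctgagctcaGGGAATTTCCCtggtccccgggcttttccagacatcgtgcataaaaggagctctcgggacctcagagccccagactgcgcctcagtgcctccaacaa
Cxcl3: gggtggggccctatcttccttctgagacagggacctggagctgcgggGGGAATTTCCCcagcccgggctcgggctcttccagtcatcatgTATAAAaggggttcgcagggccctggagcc
Cxcl10: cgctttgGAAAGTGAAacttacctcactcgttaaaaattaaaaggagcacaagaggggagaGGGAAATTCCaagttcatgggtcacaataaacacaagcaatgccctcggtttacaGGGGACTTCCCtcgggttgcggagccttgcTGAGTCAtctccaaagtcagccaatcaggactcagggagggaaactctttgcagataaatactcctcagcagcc

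The capitals in Cxcl1, Cxcl2 and Cxcl3 mark the same 11 letters, a match to the NF-kB consensus, which ends 61 bases before the RefSeq start in Cxcl1, 87 bases before it in Cxcl2 and 63 bases before it in Cxcl3. Distances are counted from the RefSeq start, which is 90891245 in Cxcl1 and 90903899 in Cxcl2 and so lies a little inside the GENCODE gene in both. The Cxcl3 window also has TATAAA, the TATA box, in capitals. In Cxcl10 the capitals mark, in order, GAAAGTGAA, a match to the core of the interferon-stimulated response element searched as GAAANNGAA, then 2 matches to the NF-kB consensus, and then TGAGTCA, an AP-1 match searched as TGANTCA. The 2 NF-kB matches of Cxcl10 end 150 and 94 bases before the start. All motifs were searched on both strands in the 250 bases before each start, and overlapping matches to 1 motif were merged. Among 32851 promoter windows of that length, 7.25% held the NF-kB consensus, 7.13% the interferon element core, 6.75% the AP-1 motif and 12.4% TATAAA. Ccl20, at 0 counts throughout, also held an NF-kB match, ending 71 bases before its start. The windows of Cxcl12, Cx3cl1 and the paralogue Cxcl9 held no NF-kB match. Cxcl12 held none of the 4 motifs, Cx3cl1 only TATAAA, and Cxcl9 TATAAA and the interferon element core. A match is a description of the letters and does not show that a factor is bound. Promoter windows were matched for 6 of the 10 ligands, Cxcl1, Cxcl2, Cxcl10, Cxcl12, Cx3cl1 and Ccl20.

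Ccl2 encodes the main CCR2 ligand and Ccl7 a related ligand of CCR2, CCR1 and CCR3. The pair are neighbours on the plus strand of chromosome 11, with Ccl2 at 82035571 to 82037453 and Ccl7 at 82045712 to 82047525. Ccl2 had 6032, 3526, 1981 and 2585 counts in tuNK 1 to 4, against 0, 4, 2 and 0 counts in spNK 1 to 4. After scaling by library size and the TMM factors of edgeR, these were 156, 82.2, 50.3 and 66.0 CPM in tuNK and 0, 0.0710, 0.0408 and 0 CPM in spNK. Every tuNK library was far above every spNK library. The means were 88.7 ± 46.8 CPM in tuNK and 0.0280 ± 0.0346 CPM in spNK (SD, n = 4 each). Because only 6 counts stood against 14124 over the groups, the fold is given as a ratio of summed counts scaled for depth, which was 2830 with a 95% counting interval of 1300 to 7712. The log2 fold change was 11.35 ± 0.66 (SE), with an adjusted p of 7.42e-07 in the edgeR quasi-likelihood test, and was 12.29 without spNK 2, the library with 4 of those 6 counts.

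Ccl7 had 792, 404, 168 and 218 counts in tuNK and 0 counts in every spNK library. On the CPM scale it was 20.5, 9.41, 4.27 and 5.57 in tuNK, a mean of 9.94 ± 7.37 CPM (SD, n = 4), against 0 CPM in spNK. The 4 tuNK libraries ranked in the same order as for Ccl2, from library 1 down through 2 and 4 to 3. With 0 counts in spNK the fold is a lower bound against a floor of 3 counts per library, and Ccl7 was at least 158-fold higher in tuNK, with an adjusted p of 6.42e-05 (edgeR quasi-likelihood test). Without tuNK 1 the bound was 102. The ratio of Ccl2 to Ccl7 in TPM was 7.46, 8.56, 11.5 and 11.6 in tuNK 1 to 4, so Ccl2 was the more abundant of the pair in each tuNK library.

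Other genes of the monocyte attractant cluster on chromosome 11 were also detected in tuNK. Ccl8, a ligand of several CC receptors, had 3.39, 1.54, 0.585 and 0.408 CPM in tuNK and 0 CPM in all spNK libraries, at least 23.5-fold higher with an adjusted p of 6.27e-04 (edgeR quasi-likelihood test), and at least 13.4-fold without tuNK 1. Ccl12, a mouse CCR2 ligand and close paralogue of Ccl2, had 0.207, 0.0466, 0 and 0.128 CPM in tuNK and 0 CPM in all spNK libraries, and was too low to be tested. Any reads common to these paralogues are divided by the authors' quantification, so the values of the low members may be uncertain. The sequences of these paralogues were not compared.

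Cxcl1, Cxcl2 and Cxcl5 encode ligands of CXCR2 that attract neutrophils. Cxcl1 had 556, 104, 73 and 190 counts in tuNK and 0 counts in every spNK library. Its level was 14.4, 2.42, 1.86 and 4.85 CPM in tuNK, a mean of 5.88 ± 5.82 CPM (SD, n = 4). Library tuNK 1 stood well above the other tuNK libraries, all of which were above spNK. Cxcl1 was at least 93.2-fold higher in tuNK, with an adjusted p of 3.43e-04 (edgeR quasi-likelihood test), and at least 48.2-fold without tuNK 1.

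Cxcl2 had 1, 6, 0 and 7 counts in tuNK and 0 counts in every spNK library, so the groups overlapped at 0 and the gene did not pass the filter. Without the filter its unadjusted p was 0.0319 and its adjusted p 0.0645 (edgeR quasi-likelihood test). Cxcl5 had 9, 11, 7 and 28 counts in tuNK, against 0, 0, 0 and 6 counts in spNK. Every tuNK library was thus above every spNK library on counts, and the levels were 0.178 to 0.715 CPM in tuNK and 0 to 0.136 CPM in spNK. Without the filter its log2 fold change was 3.26 with an adjusted p of 0.0968 (edgeR quasi-likelihood test). It was called only on log2(TPM + 1) with limma and no filter (adjusted p = 0.0451). Their paralogue Cxcl3 had 0.0259, 0, 0 and 0.102 CPM in tuNK and 0, 0, 0.306 and 0 CPM in spNK, and was not tested. Of the 3 genes that share the 11 printed letters, Cxcl1 was therefore the one with more than a few counts in tuNK. Reads common to Cxcl1, Cxcl2 and Cxcl3 are divided by the authors' quantification, so the low values are uncertain.

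Cxcl10 encodes an interferon-inducible ligand of CXCR3. It had 1549, 652, 437 and 512 counts in tuNK, against 55, 21, 48 and 2 counts in spNK. The levels were 40.1, 15.2, 11.1 and 13.1 CPM in tuNK and 1.28, 0.373, 0.980 and 0.0453 CPM in spNK. Unlike Ccl7 and Cxcl1, Cxcl10 was detected in every spNK library, and the groups did not overlap. The means were 19.9 ± 13.6 CPM in tuNK and 0.670 ± 0.562 CPM in spNK (SD, n = 4 each), a 29.7-fold difference. Its log2 fold change was 4.89 ± 0.79 (SE), with an adjusted p of 5.03e-04 in the edgeR quasi-likelihood test, and 4.28 without tuNK 1.

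The other CXCR3 ligands, which lie next to Cxcl10, had different values. Cxcl11 had 4.81, 2.19, 0.203 and 0.996 CPM in tuNK and 0, 0.0710, 0.102 and 0 CPM in spNK. All 4 tuNK libraries were above all spNK libraries, but the gene did not pass the filter. Without the filter it was called higher, with a log2 fold change of 5.41 ± 1.18 (SE) and an adjusted p of 0.00180 (edgeR quasi-likelihood test). Cxcl9 had 6.73, 2.38, 0.0508 and 1.76 CPM in tuNK, against 1.95, 4.88, 6.78 and 4.53 CPM in spNK. Its groups overlapped, and its log2 fold change of -0.73 did not pass the threshold (adjusted p = 0.489, edgeR quasi-likelihood test). On the minus strand Cxcl10 overlaps Art3, annotated on the plus strand, which had at most 6 counts in any library.

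Cxcl12 encodes the ligand of CXCR4 and of the scavenging receptor ACKR3 and is a textbook product of stromal cells. The gene lies on the plus strand of chromosome 6 at 117168535 to 117181367. It had 205, 72, 38 and 54 counts in tuNK, against 24, 37, 0 and 38 counts in spNK. The levels were 5.31, 1.68, 0.966 and 1.38 CPM in tuNK and 0.558, 0.657, 0 and 0.861 CPM in spNK. The groups did not overlap, but the gap between the lowest tuNK and the highest spNK library was narrow. The log2 fold change was 2.16 ± 0.95 (SE), with an adjusted p of 0.0629 (edgeR quasi-likelihood test). The call depended on the libraries and the tool. The adjusted p was 0.0324 without spNK 3, the library at 0, with a log2 fold change of 1.74, and 0.256 without tuNK 1, with a log2 fold change of 1.36. DESeq2 gave an adjusted p of 0.0241.

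Cxcl16 and Cx3cl1 encode the ligands that are made as membrane proteins and released by proteases, and they bind CXCR6 and CX3CR1. Cxcl16 lies on the minus strand of chromosome 11 at 70453983 to 70459984. It had 21, 13, 27 and 30 counts in tuNK, against 253, 751, 615 and 563 counts in spNK. The levels were 0.544, 0.303, 0.686 and 0.766 CPM in tuNK and 5.89, 13.3, 12.6 and 12.8 CPM in spNK. Each tuNK library was below each spNK library, and spNK 1 was the lowest of its group. The means were 0.575 ± 0.203 CPM in tuNK and 11.1 ± 3.51 CPM in spNK (SD, n = 4 each), 19.3-fold lower in tuNK. The log2 fold change was -4.27 ± 0.38 (SE), with an adjusted p of 2.57e-06 in the edgeR quasi-likelihood test.

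An antisense neighbour, Zmynd15, overlaps Cxcl16 on the plus strand and had 5, 0, 2 and 0 counts in tuNK, against 65, 184, 131 and 172 counts in spNK. The library kit keeps strand, but the strand setting of the counting is not given in the sources used here, so reads of Cxcl16 and Zmynd15 in their overlap cannot be told apart. Summed markers of B cells (24.5 to 38.3 CPM in tuNK, 266 to 1298 CPM in spNK) and of dendritic cells (106 to 130 CPM in tuNK, 405 to 665 CPM in spNK) were lower in tuNK too. All 8 dendritic cell markers tested and 7 of the 8 B cell markers tested were lower in tuNK. This was not particular to these cells, since all 10 NK cell, all 10 pan-leukocyte and all 7 T cell markers tested were lower too. Of 11 macrophage and monocyte markers tested, 3 were higher and 4 lower. The part of B cells and dendritic cells in the Cxcl16 difference was not tested.

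Cx3cl1 lies on the plus strand of chromosome 8 at 94772009 to 94782427 and had 6, 1, 20 and 38 counts in tuNK, against 9, 18, 11 and 19 counts in spNK. The levels were 0.155, 0.0233, 0.508 and 0.970 CPM in tuNK and 0.209, 0.320, 0.225 and 0.431 CPM in spNK. The tuNK values lay on both sides of the spNK values. The log2 fold change was 0.48 ± 0.88 (SE), with an adjusted p of 0.648 (edgeR quasi-likelihood test), and it was -0.38 without tuNK 4. Under a scaling to pan-leukocyte genes, described below, it passed the threshold.

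Ccl20, the CCR6 ligand, lies on the plus strand of chromosome 1 at 83116766 to 83119167. It had 0 counts in all 8 libraries, which allows up to 0.0777 CPM in tuNK 1, the shallowest library, and up to 0.0533 CPM in spNK 2, the deepest. PCR copies of 1 molecule are counted separately, so such limits cover counting error and nothing else.

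Levels can be compared between genes only on the length-scaled TPM values. In tuNK the order by mean was Ccl2 (141.5 ± 90.3 TPM), Cxcl10 (21.7 ± 17.1 TPM), Ccl7 (16.4 ± 13.9 TPM), Cxcl1 (7.06 ± 8.40 TPM) and Cxcl12 (1.22 ± 1.16 TPM; SD, n = 4 each). The ranges of Ccl2 and Cxcl10 did not overlap, whereas every later pair of neighbours in the order overlapped across libraries. Within each library, however, each of these 5 ligands was above the next in 4 of 4 tuNK libraries. Cxcl16 (0.297 ± 0.079 TPM), Cx3cl1 (0.248 ± 0.365 TPM), Cxcl5 (0.231 ± 0.154 TPM) and Cxcl2 (0.160 ± 0.198 TPM) followed, with overlapping ranges and no fixed order within libraries. In spNK, Cxcl16 led with 6.64 ± 2.41 TPM and was above Cxcl10 (1.53 ± 1.81 TPM) in 4 of 4 libraries, although their ranges met.

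The summed level of the 10 ligands was 380, 160, 91.3 and 124 TPM in tuNK, against 5.04, 8.42, 12.2 and 8.94 TPM in spNK. Ccl2 made up 71.9, 78.4, 79.0 and 76.7% of that sum in tuNK and at most 1.52% in spNK. Cxcl16 made up at most 0.263% of it in tuNK, against 60.8, 87.3, 65.4 and 91.0% in spNK. Cxcl10 held 9.92 to 12.4% of the sum in tuNK, beside 0.636 to 33.3% in spNK. The shares of Ccl2 and Cxcl10 thus varied little among tuNK libraries whose sums differed several-fold. That of Cxcl1 varied more, at 5.10, 1.38, 1.36 and 4.35% in tuNK 1 to 4, and that of Cxcl12 was 0.379 to 0.771% in tuNK.

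**Figure D2:**
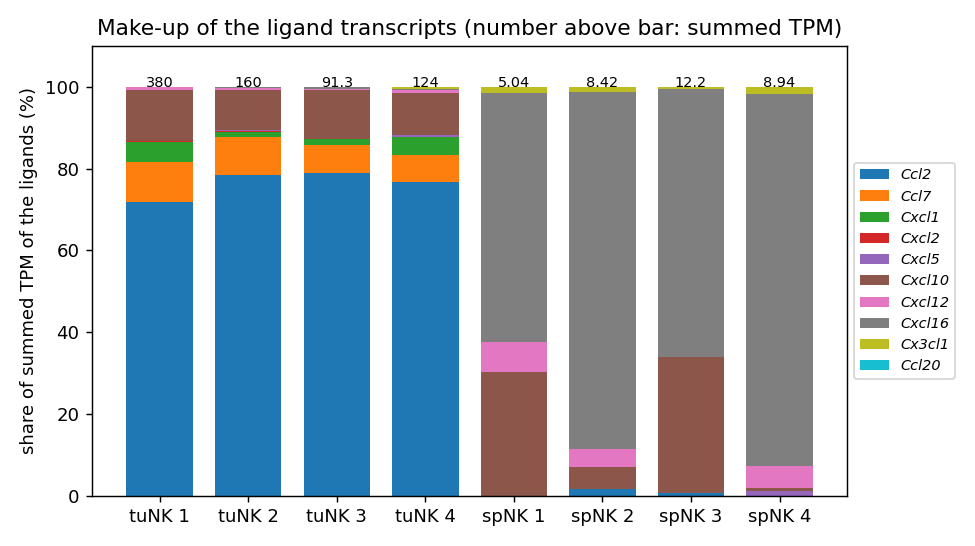
Share of the summed TPM of the 10 ligands held by each ligand in each library (stacked bars, 0 to 100%), with the 4 tuNK libraries on the left and the 4 spNK libraries on the right and the summed TPM printed above each bar. Ccl2 fills 71.9 to 79.0% of each tuNK bar, and Cxcl16 fills 60.8 to 91.0% of each spNK bar.

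The TPM values of some ligands also depend on which transcripts the reads were assigned to. The ratio of counts to TPM, scaled between libraries, follows the effective length assigned to a gene. For Ccl2 it was 26.2 to 26.4 in the tuNK libraries and for Ccl7 25.6 to 25.8, so their length was the same throughout. For Cxcl1 it was 34.0, 44.1, 56.4 and 34.2 in tuNK 1 to 4, and for Cxcl16 it was 60.0, 46.0, 108 and 108 in tuNK, against 93.5, 86.1, 73.6 and 75.6 in spNK. For Cx3cl1 it was 46.9 in tuNK 4 and between 134.4 and 134.8 in the other 7 libraries, and that library's TPM of 0.788 was the highest of the 8. For Cxcl10 it was 11.3 in spNK 3 and between 38.5 and 40.9 elsewhere, so the 4.08 TPM of that library was high for its 48 counts.

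The tuNK libraries differed among themselves in a common pattern. Library tuNK 1 exceeded the mean of tuNK 2 to 4 by 4.73 times for Cxcl1, 3.96 times for Cxcl12, 3.20 times for Ccl7, 3.06 times for Cxcl10 and 2.36 times for Ccl2. It did not for Cxcl16 (0.929 times) or Cx3cl1 (0.310 times). Library tuNK 1 was the highest of its group for 5 of the 7 ligands tested, against 29.6% of all genes tested and 35.9% of the genes called higher in tuNK. The order 1, 2, 4, 3 held for 4 of the 7 ligands, beside 7.19% of all genes tested. These orders were described after the values had been seen. The summed mesenchymal markers were 4865 CPM in tuNK 1 and 3167, 3155 and 3468 CPM in tuNK 2 to 4, and 12 of the 14 were highest in tuNK 1. The summed NK cell markers were lowest in tuNK 1, at 3445 CPM. The part of these markers in the spread was not tested.

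In the lists of NF-kB and interferon genes, too, tuNK 1 was often the highest tuNK library. This held for 19 of the 25 NF-kB and inflammatory response genes tested and 7 of the 12 interferon genes, beside 29.6% of all genes tested. The order 1, 2, 4, 3 held for 8 of those 25 and 6 of those 12, beside 7.19% of all genes tested. The NF-kB genes named next were chosen after their values were seen. Nfkbiz, a nuclear cofactor of NF-kB, had 66.5, 30.5, 9.0 and 16.0 CPM in tuNK 1 to 4. Tnfaip3, which encodes the NF-kB inhibitor A20, had 272, 170, 65.1 and 100.5 CPM in tuNK, and Zfp36, which encodes an mRNA-destabilising protein, had 553, 318, 114 and 161 CPM. Nfkbiz, Tnfaip3 and Zfp36 ran in the order of Ccl2 and Ccl7, and so did Nfkbia, given next, whereas most genes of the list did not. Nfkbia, the gene of the inhibitor IκBα, had 288, 132, 82.4 and 119 CPM in tuNK and 107, 117, 83.6 and 106 CPM in spNK, and was not called between the groups (log2 fold change 0.59, adjusted p = 0.165, edgeR quasi-likelihood test). Without tuNK 3 it passed the threshold, with a log2 fold change of 0.79 and an adjusted p of 0.0489.

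**Figure D3:**
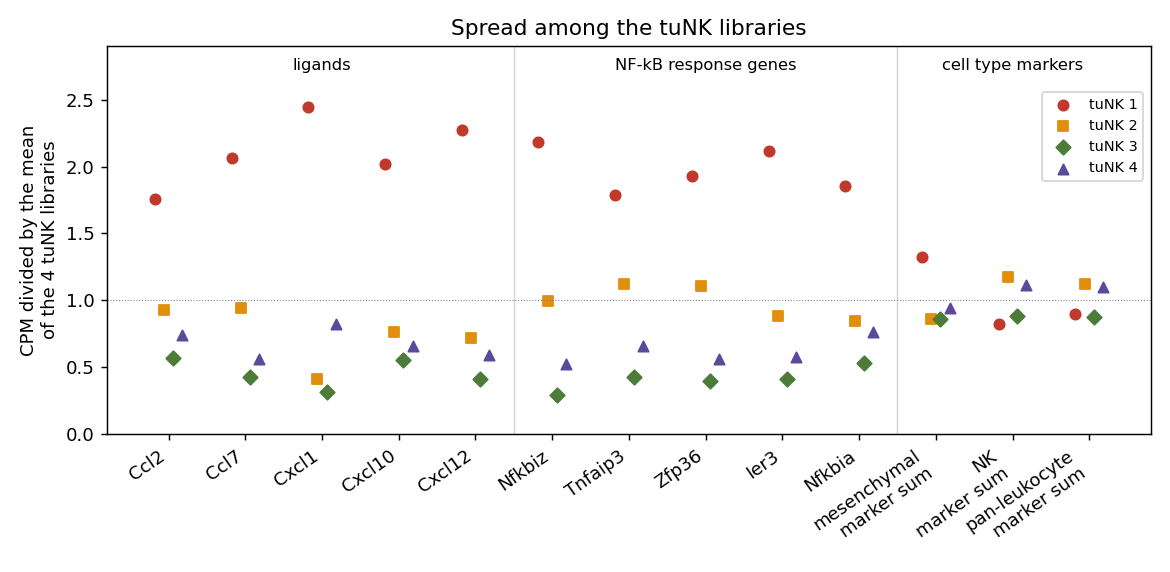
Level of 5 ligands, 5 NF-kB response genes and 3 summed marker lists in the 4 tuNK libraries, as CPM divided by the mean of the 4 tuNK libraries (linear axis from 0, dotted line at 1). Each point is 1 library and marker shape and colour give its number. tuNK 1 is the highest point for every ligand and NF-kB gene drawn and for the mesenchymal marker sum, but not for the NK cell or pan-leukocyte marker sums. For the ligands and NF-kB genes this follows from the choice of genes drawn. Cxcl2, Cxcl5, Cxcl16 and Cx3cl1, not drawn, were not highest in tuNK 1, and of the NF-kB genes tested 19 of 25 were.

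For the 3 ligands with the highest mean TPM in tuNK, the genes most like them over the 8 libraries were found by the root mean square distance of log2(CPM + 0.5) after centring each gene. For Ccl2 these were Ereg, an EGF receptor ligand (distance 0.202), Col8a1, a collagen gene (0.220), and Hbegf, another EGF receptor ligand (0.247). Ereg had 104, 68.4, 55.3 and 61.4 CPM in tuNK and 0 CPM in all spNK libraries. For Ccl7 they were Socs3, a feedback inhibitor of cytokine signalling (0.208), Errfi1, a feedback inhibitor of the EGF receptor (0.290), and Ier3, an immediate early gene (0.302). For Cxcl10 they were Lif, a cytokine of the interleukin-6 family (0.280), Sik1, a kinase gene (0.423), and Adamts1, a secreted protease gene (0.448). Lif had 29.6, 10.2, 8.11 and 8.37 CPM in tuNK and 0.326, 0.0533, 0.756 and 0 CPM in spNK. The difference between the groups enters this distance, but the offset of 0.5 CPM shrinks it where spNK is near 0. Genes listed as like can therefore differ in fold. Socs3 had 8.26, 7.54, 9.05 and 10.2 CPM in spNK and a log2 fold change of 4.11, whereas Ccl7 had 0 CPM in every spNK library.

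Among the 15 receptor genes of these ligands, scavengers included, the receptors of Cxcl12 were higher in tuNK, and the receptors of Cxcl10, Ccl2 and Cx3cl1 were lower under TMM. Of the 9 receptor genes tested, 2 were higher in tuNK (Cxcr4 and Ackr3), 3 were lower (Cxcr3, Ccr2 and Cx3cr1) and 4 were not called. The share called was 55.6%, beside 69.6% of all genes tested, and the median log2 difference was -0.27, beside 0.02. Under the pan-leukocyte scaling described below 5 were higher and 1 was lower. Cxcr4 had 165, 155, 96.3 and 108 CPM in tuNK and 35.3, 38.2, 49.9 and 44.6 CPM in spNK, a log2 fold change of 1.64 ± 0.19 (SE) with an adjusted p of 2.45e-05. Ackr3, which takes up CXCL12, had 28.6, 21.1, 17.1 and 25.8 CPM in tuNK and 0.163, 0, 0.0204 and 0.136 CPM in spNK. Its log2 fold change was 8.24 ± 0.54 (SE), adjusted p = 4.87e-07, and 8.84 without spNK 1. The groups did not overlap for either receptor. All p-values of this paragraph are from the edgeR quasi-likelihood test.

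Ccr2, the receptor of CCL2 and CCL7, had 252, 410, 291 and 301 CPM in tuNK, against 552, 645, 553 and 502 CPM in spNK. Its log2 fold change was -0.84 ± 0.14 (SE), with an adjusted p of 3.49e-04 (edgeR quasi-likelihood test). Cxcr3, the receptor of CXCL10, had 22.9, 39.5, 30.6 and 27.6 CPM in tuNK and 89.9, 101, 96.5 and 93.3 CPM in spNK. The groups were apart for both receptors, and the log2 fold change of Cxcr3 was -1.66 ± 0.15 (SE), adjusted p = 2.74e-06 (edgeR quasi-likelihood test). Cx3cr1, the fractalkine receptor, had 1.79, 4.94, 12.3 and 5.59 CPM in tuNK and 75.1, 52.0, 48.7 and 70.3 CPM in spNK. Its log2 fold change was -3.32 ± 0.50 (SE), adjusted p = 3.92e-04 (edgeR quasi-likelihood test), and -3.91 without tuNK 3.

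Cxcr6, the receptor of CXCL16, was not called, with 9.47 to 11.4 CPM in tuNK and 8.63 to 14.0 CPM in spNK (log2 fold change -0.21, adjusted p = 0.308, edgeR quasi-likelihood test). Ccrl2, a non-signalling receptor, had 7.43 to 24.7 CPM in tuNK and 12.7 to 20.5 CPM in spNK (log2 fold change -0.27, adjusted p = 0.501). Ccr1 had 3.29, 1.79, 1.96 and 2.58 CPM in tuNK and 0.745, 0.195, 4.86 and 0.431 CPM in spNK, with a log2 fold change of 0.62 and an adjusted p of 0.529. Without spNK 3 it passed the threshold, with a log2 fold change of 2.39 and an adjusted p of 0.00306. That library also held the highest sum of neutrophil markers, which was 36.9 to 156 CPM in spNK and 0.186 to 0.890 CPM in tuNK. Library spNK 3 was highest too for macrophage and monocyte (502 CPM), B cell (1298 CPM), dendritic cell (665 CPM) and erythroid (729 CPM) markers. Within the neutrophil list Mpo, Elane, Cxcr2, Csf3r and Mmp8 were highest in spNK 3, but S100a8, S100a9, Camp, Ngp and Ltf in spNK 1. The part of any of these cells in the Ccr1 values was not tested. Ccr3 had 0 to 0.332 CPM in tuNK and 0 to 1.16 CPM in spNK and was not called (adjusted p = 0.138), but was called lower without tuNK 4 (adjusted p = 0.0236). Cxcr2, the neutrophil receptor of the CXCL1 group, had 0.155, 0.0233, 0.178 and 0.230 CPM in tuNK and 0.675, 0, 6.51 and 0.0906 CPM in spNK, too low in too many libraries to be tested. Ackr1, Ackr2, Ackr4 and Ccr6 had at most 0.306 CPM in any tuNK library and at most 2.70 CPM in any spNK library, and Cxcr1 had 0 counts in all 8. Without the filter Ackr1 (adjusted p = 0.00142) and Ccr6 (adjusted p = 0.0273) were called lower in tuNK, and without tuNK 4 Ackr1 was tested and called lower (adjusted p = 0.00842), which makes 5 receptors lower there. The p-values of this paragraph are from the same test.

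**Figure D4:**
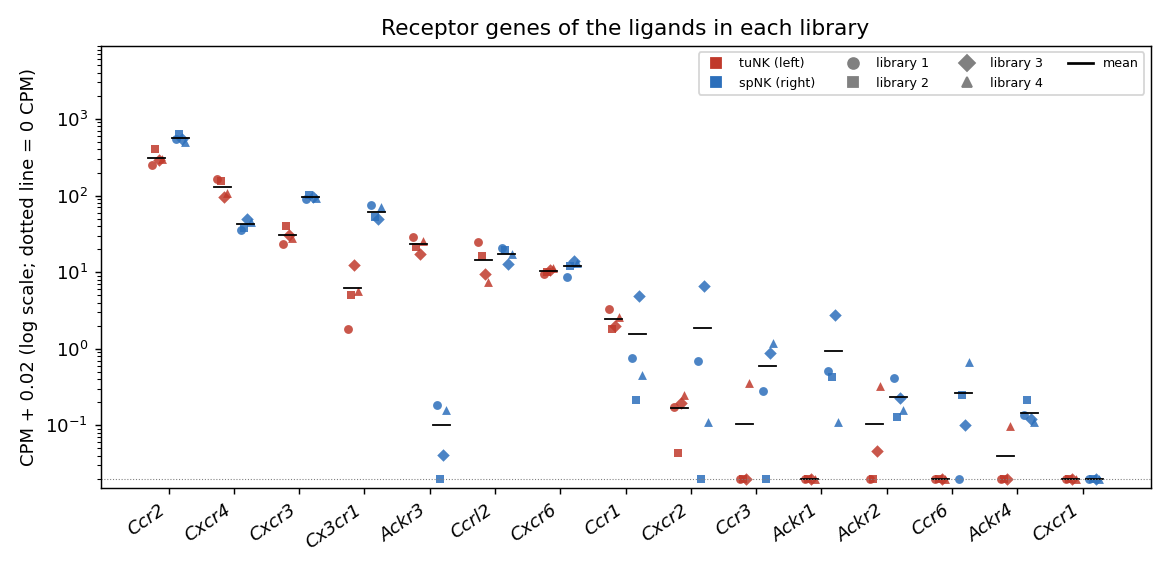
Level of the 15 receptor genes in each library, in CPM on a log axis with an offset of 0.02 CPM. Points are libraries, tuNK in red on the left and spNK in blue on the right of each gene, bars are means of 4 libraries and the dotted line marks 0 CPM. Among the genes tested, the groups are apart for Ccr2, Cxcr4, Cxcr3, Cx3cr1 and Ackr3, and overlap for Ccrl2, Cxcr6, Ccr1 and Ccr3. Among those not tested, they are apart, and lower in tuNK, for Ackr1 and Ackr4, which had at most 2.70 CPM in any library.

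The direction of some of these receptor differences depended on the scaling. The 10 pan-leukocyte genes summed to 3246 to 4152 CPM in tuNK, against 9962 to 12962 CPM in spNK. Scaling each library to those genes moved the median over all genes tested from 0.02 on the log2 scale under TMM to 1.67, and scaling by library size alone gave -0.15. Under the pan-leukocyte scaling Ccr2 was higher in tuNK, with a log2 fold change of 0.80, and Cxcr3 was level at -0.02. Cxcr6 and Ccrl2 were called higher, with log2 fold changes of 1.42 (adjusted p = 1.42e-04) and 1.43 (adjusted p = 0.00324). Cx3cr1 was still lower, at -1.62, and so was Cxcl16, at -2.63. Cxcl12 passed the threshold there, with a log2 fold change of 3.91 and an adjusted p of 0.00345, and so did Cx3cl1, with 2.10 and 0.0487 (both edgeR quasi-likelihood test). Cxcl1, Ccl2, Ccl7 and Cxcl10 were higher in tuNK under TMM, DESeq2 size factors, upper-quartile, library-size and pan-leukocyte scaling. Because the last of these raises nearly all genes, it is a check of lower calls such as that of Cxcl16 and not of higher ones.

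**Figure D5:**
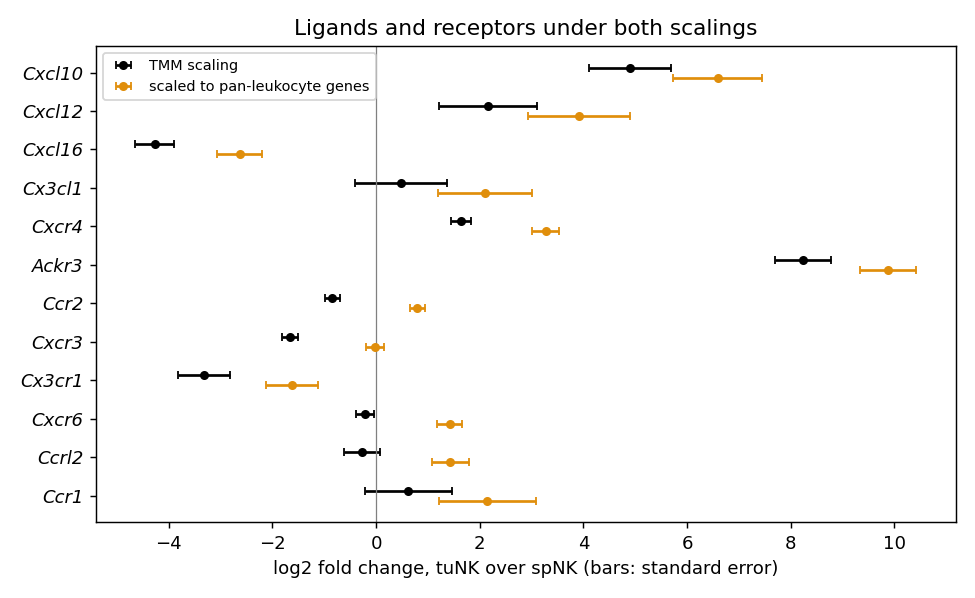
Log2 fold change, tuNK over spNK, of 4 ligands and 8 receptor genes under TMM scaling (black) and scaling to 10 pan-leukocyte genes (orange), with bars of 1 standard error and a line at 0. Every gene lies further to the right under the pan-leukocyte scaling; Ccr2 crosses 0, from -0.84 under TMM to 0.80, while Cxcl16 and Cx3cr1 stay below 0 and Cxcl10, Cxcr4 and Ackr3 stay above it.

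CXCL16 and CX3CL1 are cut from the cell surface by the proteases ADAM10 and ADAM17, and DPP4 trims several other chemokines. All 6 genes of this list passed the threshold, 3 higher and 3 lower in tuNK, and their median log2 difference was 0.13. Of all genes tested 69.6% passed it, with a median of 0.02, and under the pan-leukocyte scaling 5 of the 6 were higher and 0 were lower. Adam10 had 83.2, 88.6, 66.3 and 79.5 CPM in tuNK and 169, 164, 177 and 184 CPM in spNK. Adam17 had 46.4, 44.4, 37.5 and 42.7 CPM in tuNK and 109, 117, 94.1 and 107 CPM in spNK. Their log2 fold changes were -1.13 and -1.32 under TMM but 0.51 and 0.34 under the pan-leukocyte scaling. Rhbdf1, the gene of iRhom1, a cofactor of ADAM17, had 37.2, 31.4, 27.4 and 31.4 CPM in tuNK, against 0, 0.0710, 0.0408 and 0.249 CPM in spNK. It was higher in tuNK, with a log2 fold change of 8.44 ± 0.47 (SE) and an adjusted p of 1.74e-07 (edgeR quasi-likelihood test), and 9.52 without spNK 4. Its relative Rhbdf2 was also higher, with a mean of 16.7 ± 2.18 CPM in tuNK and 4.82 ± 1.20 CPM in spNK (SD, n = 4 each) and a log2 fold change of 1.80.

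Other chemokine ligands moved in both directions. Of 25 further ligand genes, 13 were tested, 4 were higher in tuNK (Cxcl14, Ccl8, Ccl25 and Xcl1), 6 were lower and 3 were not called. The share called was 76.9%, beside 69.6% of all genes tested, and the median log2 difference was -0.73, beside 0.02. A difference between these ligands and the 10 was not tested. The pan-leukocyte scaling gave 6 higher and 4 lower, no filter gave 8 higher, and a filter of 1 CPM in 4 libraries gave 2 higher. The number higher was 8 without spNK 3 and 7 without spNK 1, spNK 2 or spNK 4, since more genes then passed the filter or the threshold. The 4 with the smallest adjusted p were all lower in tuNK. Ccl5 averaged 252 ± 55.6 CPM in tuNK and 4038 ± 751 CPM in spNK (SD, n = 4 each), a log2 fold change of -4.00. Ccl3 had a log2 fold change of -1.74 under TMM and -0.06 under the pan-leukocyte scaling. The platelet chemokines Pf4 and Ppbp had log2 fold changes of -12.12 and -6.06. Pf4 had 0, 0, 0.0762 and 0 CPM in tuNK, against 75.3, 83.3, 90.8 and 135 CPM in spNK, and its log2 fold change was -15.07 without tuNK 3. Summed platelet markers, a list that includes both genes, were 46.3 to 121 CPM in tuNK and 409 to 713 CPM in spNK. Xcl1, called higher, averaged 90.9 ± 7.21 CPM in tuNK and 62.7 ± 3.42 CPM in spNK (SD, n = 4 each). Its log2 fold change was 0.54, with an adjusted p of 2.16e-04 (edgeR quasi-likelihood test). Ccl4 was not called, with a log2 fold change of -0.26 and an adjusted p of 0.295 (same test).

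Of the 25 NF-kB and inflammatory response genes tested, 11 were higher in tuNK, 6 were lower and 8 were not called. The share called was 68.0%, near the 69.6% of all genes tested, and the median log2 difference was 0.21, beside 0.02. The pan-leukocyte scaling made this 22 higher and 1 lower. Nfkb2, the precursor of p52 in the alternative pathway, averaged 410 ± 49.8 CPM in tuNK and 61.4 ± 5.04 CPM in spNK (SD, n = 4 each), a log2 fold change of 2.74 with an adjusted p of 1.25e-08 (edgeR quasi-likelihood test). Il1r1, the interleukin-1 receptor, averaged 14.1 ± 1.33 CPM in tuNK and 0.358 ± 0.112 CPM in spNK, a log2 fold change of 5.29. Cebpb, a partner of NF-kB at inflammatory genes, had a log2 fold change of 3.68. Traf6, an adaptor of the interleukin-1 receptor, was lower, with a log2 fold change of -2.05.

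Of the 12 interferon receptor and factor genes, 1 was higher in tuNK, 7 were lower and 4 were not called. The share called was 66.7%, near the 69.6% of all genes tested, of which 35.6% were higher and 34.0% lower, and the median log2 difference was -0.63, beside 0.02. The pan-leukocyte scaling made this 10 higher and 1 lower. Jak1, a kinase of the interferon receptors, averaged 245 ± 37.0 CPM in tuNK and 1131 ± 166 CPM in spNK (SD, n = 4 each), a log2 fold change of -2.21 under TMM and -0.54 under the pan-leukocyte scaling. Ifnar2, Ifngr1 and Jak2 were lower under TMM, at -1.07, -0.98 and -1.08, but above 0 under the pan-leukocyte scaling. The 1 gene called higher was Ifngr2, with a mean of 37.5 ± 5.02 CPM in tuNK and 3.66 ± 1.93 CPM in spNK. Its log2 fold change was 3.36, with an adjusted p of 3.52e-05 (edgeR quasi-likelihood test).

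Markers of the other cell types that a sort could hold are given here for the ligands as a group. Epithelial markers summed to 48.2 to 69.5 CPM in tuNK and 1.31 to 10.05 CPM in spNK, with 4 of the 6 tested higher in tuNK. Most of the tuNK sum came from Krt18, Cdh17 and Krt20, with means of 31.2, 11.8 and 9.41 CPM. The other genes of that list, Epcam and Krt8 among them, averaged at most 0.823 CPM in tuNK. Cdh1 averaged 0.729 CPM in tuNK and 1.71 CPM in spNK. Macrophage and monocyte markers summed to 1642 to 2047 CPM in tuNK and 299 to 502 CPM in spNK, with 3 of 11 tested higher and 4 lower. Means over this list ran both ways. Spp1 averaged 1704 CPM in tuNK and 2.46 CPM in spNK, Cd14 60.4 CPM in tuNK and 0.280 CPM in spNK, and Mrc1 3.67 CPM in tuNK and 0.400 CPM in spNK. Ly6c2 averaged 60.8 CPM in tuNK and 273.7 CPM in spNK, Lyz2 2.16 CPM in tuNK and 96.4 CPM in spNK, and Cd68 7.23 CPM in tuNK and 6.92 CPM in spNK. The other 8, among them Csf1r, Adgre1 and the C1q genes, averaged at most 0.380 CPM in tuNK and at most 2.83 CPM in spNK. Neutrophil markers summed to at most 0.890 CPM in a tuNK library, with 6 of the 12 at 0 in all 4. Endothelial markers summed to 49.3 to 72.9 CPM in tuNK and 147 to 181 CPM in spNK, with 1 of 7 tested higher and 3 lower. Most of this sum came from Pecam1, at 51.1 CPM in tuNK and 82.4 CPM in spNK, and Vwf, at 0 CPM in tuNK and 65.9 CPM in spNK. Flt1 went the other way, with 2.68 CPM in tuNK and 0.415 CPM in spNK. The mesenchymal collagen gene Col1a2 averaged 1861 ± 470 CPM in tuNK and 1.42 ± 0.76 CPM in spNK, and the NK cell receptor gene Ncr1 averaged 312 ± 45.9 CPM in tuNK and 1469 ± 223 CPM in spNK (SD, n = 4 each). Which of these cells held the ligand transcripts was not tested.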

How the data were processed

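Total RNA from 4 tuNK and 4 spNK samples was sequenced by the authors after selection of polyadenylated RNA, per the labels' protocols. Per the submitters' processing notes, FastQC 0.11.9, STAR and Salmon were used with GRCm38 (mm10). Neither the annotation release nor the strand setting, nor a version of STAR or Salmon, is given in the sources used here. Tables deposited by the authors hold estimated counts (expected counts, not normalised) and TPM (per length, summing to 1000000 per library).

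Estimated counts were rounded to whole numbers. Genes were filtered with filterByExpr of edgeR 4.0.16 in R 4.3.3, scaled with TMM and tested with the quasi-likelihood F test with robust settings, without covariates. P-values were adjusted with the Benjamini-Hochberg method over the 14006 genes tested, and 0.05 was the threshold. Each log2 fold change is tuNK over spNK. Groups with 0 counts throughout were set to a floor of 3 counts per library for a lower bound on the fold. Such floors and counting intervals cover counting error only. The pipeline was tested on simulated data. The correlation of deviations showed no clear pairing of same-numbered samples, which does not exclude it (see the alternatives). Positions are from GENCODE M21, promoter sequences from RefSeq (GRCm38.p6).

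The members and gene lists were chosen with earlier results of these data known. All 10 ligands and all receptor genes were named whatever their result, with the paralogues Cxcl3, Ccl12, Cxcl9 and Cxcl11, the 4 genes of each related list with the smallest adjusted p, and the 3 genes most like each of the 3 most abundant ligands. Ccl4, Ccl8, Cxcl14, Ccl25, Xcl1, Nfkbiz, Tnfaip3, Zfp36, Nfkbia and Ifngr2 were named after their values were seen. Alternatives were DESeq2 1.42.0 and its size factors, upper-quartile, library-size and pan-leukocyte scaling, other filters, limma 3.58.1 on log2(TPM + 1) and log2(TPM + 0.1), a replicate block, leaving out each library, and testing against a minimum fold of 1.5. Leaving out spNK 3 and tuNK 1 together was chosen after seeing the data.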

Additional observations from a re-analysis of the deposited data

Results flagged for a closer look

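In 15 ligand groups with a range above 0, the gap between the extreme library and its nearest neighbour, divided by the range of the 4 libraries, was compared with the 95% critical value of Dixon's test for 4 samples. For independent, normally distributed values, chance passes it in about 1 in 20 groups. Low counts are not so distributed, and the ligands share libraries, so the number passed is not to be set against that rate. It was passed in 5 groups. For Cxcl10 in tuNK the ratio was 0.859, with tuNK 1 at 40.1 CPM and the others at 11.1 to 15.2 CPM. For Cxcl12 in tuNK it was 0.836, with tuNK 1 at 5.31 CPM and the others at 0.966 to 1.68 CPM. For Cxcl5 in tuNK it was 0.854, with tuNK 4 at 0.715 CPM and the others at 0.178 to 0.256 CPM. For Cxcl5 in spNK it was 1, since spNK 4 had 6 counts and the other libraries 0. For Cxcl16 in spNK it was 0.896, with spNK 1 at 5.89 CPM and the others at 12.6 to 13.3 CPM. The cause was not tested for any of them.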

How the results depend on the processing

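Cxcl1, Cxcl10, Ccl2 and Ccl7 were called higher and Cxcl16 lower under all 21 alternatives that were run, of which the pan-leukocyte scaling raises nearly all genes and so checks only the lower call, and the number of ligands called ran from 5 to 7. Over the 8 alternatives that left out 1 library, log2 fold changes ran from 10.92 to 12.29 for Ccl2, from 4.28 to 5.38 for Cxcl10 and from -4.50 to -4.07 for Cxcl16. For Cxcl12 they ran from 1.36 to 2.50, with adjusted p from 0.0324 to 0.256, and for Cx3cl1 from -0.38 to 0.86, with adjusted p of 0.356 to 0.790. The fit with a replicate block gave -0.10 for Cx3cl1. The replicate block called 9555 genes and the same 5 ligands as the fit without it. Deviations of same-numbered samples correlated at -0.00403 to 0.0825, beside up to 0.0613 for other numbers, so no clear pairing was seen. Correlations this near 0 cannot exclude that same-numbered samples came from the same mice. Of all genes, 9744 were called, against 6378 in the test against a fold of 1.5, of which 3028 were lower in tuNK. The pan-leukocyte scaling called 10893 genes higher and 920 lower, against 4983 and 4761 under TMM. Leaving out spNK 3 and tuNK 1 together, chosen after seeing the data, called 9657 genes. Timp3 lost its call without spNK 2 or tuNK 4, Ccl25 without tuNK 3 and Ccl6 without tuNK 1. Depth limits the low ligands: Cxcl2, Cxcl5 and Cx3cl1 had at most 38 counts in a library. The cause of these dependences was not tested.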
